A study of Mus musculus with 48 samples.

Results

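The 86 genes that code for the proteins of the mouse cytosolic ribosome, 52 of the large subunit and 34 of the small subunit, were followed gene by gene among the 48526 genes of the count table. A gene was taken when its Ensembl identifier belonged to a protein-coding gene of GENCODE mouse release 21 whose symbol was Rpl or Rps with a digit, or Rpsa, Rplp0, Rplp1 or Rplp2, and pseudogenes and the S6 kinases were left out. Rps19bp1 met this symbol rule and was kept, although it codes for a binding partner of Rps19 and not for a ribosomal protein. Subunits were assigned by symbol alone, so paralogs such as Rpl7l1 are counted with the large subunit. The libraries came from the cortex of 12 male C57BL/6JRj mice, 4 at 3 weeks, 4 at an age labelled 6 months and given as 5 months in the study's protocol (called 5 months from here on) and 4 at 18 months. The labels give no genotype or treatment that differed between the mice. From each mouse, total homogenate (TH) and synaptosomes (SYN, pinched-off synaptic endings taken from a sucrose gradient) were each sequenced as an input and after centrifugation through a sucrose cushion (SC), whose pellet holds ribosomes and the RNA bound to them. The 4 fractions are called input_TH, SC_TH, input_SYN and SC_SYN, and the study's measure of translation efficiency was SC over input within a compartment and SC_SYN over SC_TH between compartments.

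Each ribosome carries most of these proteins in a single copy, so their mRNAs are usually regulated together. The mRNAs begin with a 5′ terminal oligopyrimidine (TOP) run, a C followed by further C or U, through which mTOR and LARP1 set how many of them are on ribosomes. In neurons, ribosomal protein mRNAs are among those found in dendrites and axons.

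The first bases of 12 members on which the results below turn are shown here, because the TOP run is the sequence feature that the family is known for. Each line holds 30 bases of the strand that is transcribed into mRNA, 10 before and 20 from the RefSeq start site on (RefSeq, GRCm38.p6). The capitals mark the first run of a C followed by at least 4 bases that are C or T and that begins within 10 bases of the start site. In Rps27 the capitals lie wholly before the start site, and a longer run in small letters, ctcctttcc, spans it. On the plus strand the windows are those of Rps21 (chr2:180257369-180257398), Rps23 (chr13:90923112-90923141), Rps2 (chr17:24720053-24720082), Rpl28 (chr7:4792955-4792984), Rpl12 (chr2:32961702-32961731), Rpl26 (chr11:68901556-68901585), Rpl27 (chr11:101442235-101442264), Rps16 (chr7:28350679-28350708), Rpl5 (chr5:107900518-107900547) and Rpsa (chr9:120127756-120127785), and on the minus strand those of Rps12 (chr10:23787190-23787219) and Rps27 (chr3:90213629-90213658).
Rps21: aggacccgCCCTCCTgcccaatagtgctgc
Rps23: cggctgggcggggCTTCCCgcaatgccttg
Rps12: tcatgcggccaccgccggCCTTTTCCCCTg
Rps2: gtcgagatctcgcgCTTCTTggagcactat
Rps27: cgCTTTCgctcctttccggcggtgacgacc
Rpl28: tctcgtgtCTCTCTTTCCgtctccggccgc
Rpl12: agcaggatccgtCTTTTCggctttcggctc
Rpl26: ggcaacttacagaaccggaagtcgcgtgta
Rpl27: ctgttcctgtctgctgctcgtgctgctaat
Rps16: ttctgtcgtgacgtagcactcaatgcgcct
Rpl5: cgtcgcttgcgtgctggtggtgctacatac
Rpsa: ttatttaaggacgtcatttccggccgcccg
A start site was listed for 66 of the 86 members, and 37 of them (56.1%) held such a run on the transcribed strand, against 30.8% of all 27025 genes in the table. The run stood in 22 of 40 large and in 15 of 26 small subunit genes. At 5 months the median log2 change of SC_TH over input_TH was -0.023 in 34 members with the run and -0.25 in 29 without it, and the ranges of the 2 sets overlapped over most of their width, from -1.36 to 0.91 with the run and from -1.47 to 1.37 without it. In the same order, the medians were -0.49 and -0.54 for SC_SYN over input_SYN and 1.25 and 1.10 for input_SYN over input_TH. For SC_SYN over SC_TH they were 0.86 and 0.95, and for SC_TH from 3 weeks to 5 months 0.19 and 0.30. A start site annotated a few bases away from the one used in cortex would hide a run, so a missing run says only that these letters are not in this window. Runs that ended before the start site were counted too, as in Rpl10a, Rpl6, Rps18 and Rps27. So were runs that began inside the transcript, as in Rps12 and Rps7. The split is thus by a pyrimidine run near the annotated start site, not by a TOP run shown to begin the mRNA.

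The 48 libraries held 1780267 to 18590040 counts, and the members took 0.478 to 0.570% of the counts in input_TH, 0.391 to 0.510% in SC_TH, 0.734 to 0.837% in input_SYN and 0.514 to 0.636% in SC_SYN. Libraries of the same group differed mainly along 1 direction. The first principal component of log2 CPM (counts scaled to library size, with TMM factors) held 73.4% of the within-group variance of the 77 members with a mean of at least 100 counts, and 42.2% of that of all 9290 genes at this level. Along it, Rps29, Rpl29, Rps21, Rpl26, Rps24, Rps13, Rps19, Rps27, Rpl13 and Rpl36 stood at one end and Rpl5, Rps14, Rps16, Rpl11, Rpl9, Rps23, Rpl30, Rps3, Rps18 and Rps6 at the other. Deeper libraries tended to lie towards the first 10, with a within-group r of 0.62 between the component and the log2 library total. In SC_SYN at 18 months the mean log2 level of the first 10 genes minus that of the other 10 was -2.30 and -2.75 in mice 195 and 198, with 6268207 and 5341263 counts, and -0.77 and -0.49 in mice 196 and 197, with 18590040 and 15306804 counts. The order also followed depth in SC_TH at 5 months, from -2.10 with 5992223 counts to -0.53 with 13484631 counts. So it did in input_SYN at 18 months, from -3.11 with 2843173 counts to -0.72 with 7879536 counts. Some other groups did not follow depth. In SC_SYN at 3 weeks mice 187 and 188 gave -0.99 and -3.38 with 5415274 and 6132944 counts. At 5 months the deepest SC_SYN library, of mouse 194 with 14557582 counts, was the lowest at -1.51. The 12 input_TH libraries lay close together on this scale, with group means of -0.49 at 3 weeks, -0.49 at 5 months and -0.51 at 18 months, whereas in the same order SC_TH gave -2.16, -1.29 and -0.74, input_SYN -1.87, -1.48 and -1.74, and SC_SYN -2.16, -1.21 and -1.58. The median depth of SC_TH also rose with age, from 4448523 through 8643431 to 12328632 counts. Both subunits lay at both ends, with a positive slope for 28 of 46 large and 20 of 31 small subunit genes. The part of this direction in the differences that involve SC_TH, SC_SYN or input_SYN was not tested.

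**Figure D1:**
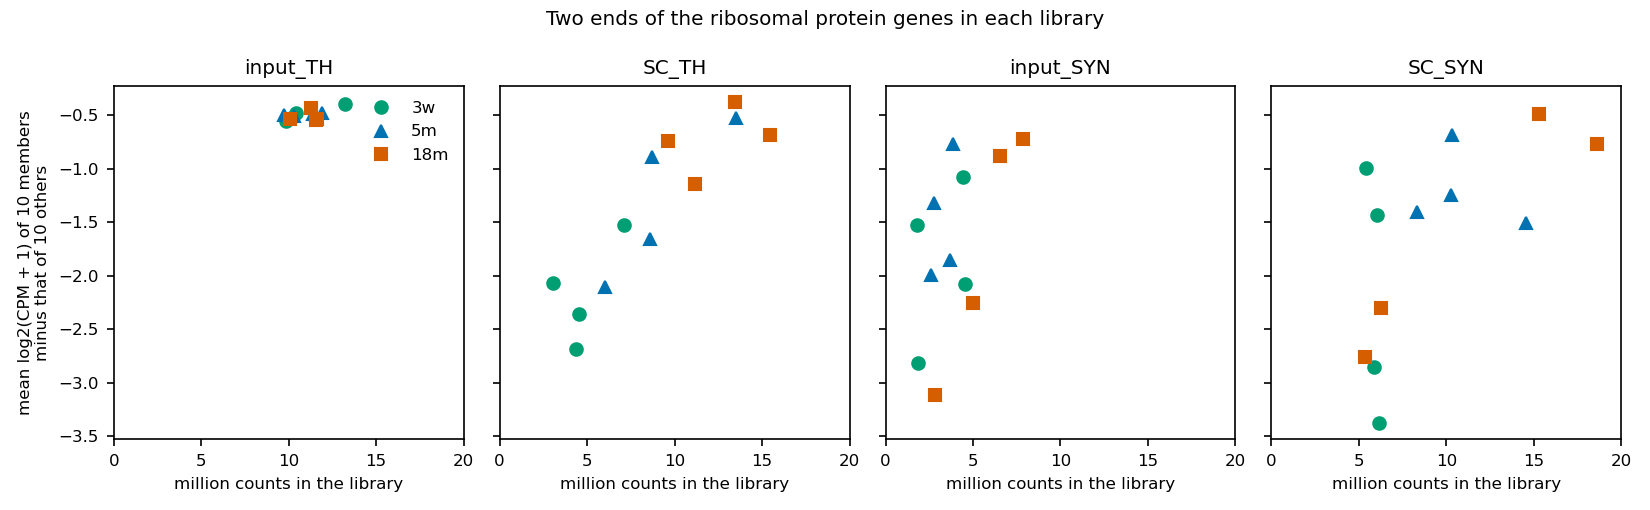
Mean log2(CPM + 1) of the 10 members at one end of the main within-group direction minus that of the 10 at the other end (vertical axis), against the total count of the library (horizontal axis), for each of the 48 libraries in 4 panels by fraction, with 1 point per mouse coloured by age. The input_TH points form a flat cloud, and in the other 3 fractions the lowest points belong to libraries with few counts. In SC_SYN some libraries with few counts also stand high.

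Levels were compared between genes only per length, as RPKM, the count per kilobase of exon scaled to the library total, over the 12 groups. Rplp1, a protein of the ribosomal stalk that binds elongation factors, had the highest mean level at 228 RPKM, followed by Rpl41, the smallest ribosomal protein, at 177 RPKM and Rps15, a protein of the small subunit, at 120 RPKM. At the lower end, Rpl10l, a testis paralog of Rpl10, had no count in any library, and Rpl39l and Rpl3l, paralogs known from testis and from muscle, stood at 0.021 and 0.11 RPKM. Next came Rpl24 at 0.52 RPKM, Rps27l at 2.6 RPKM and Rpl22l1 at 4.7 RPKM. Of the 85 neighbouring pairs in this order, 80 differed by less than their spread over the groups. The exceptions were Rpl41 over Rps15 and the steps from Rpl22l1 down through Rps27l, Rpl24, Rpl3l and Rpl39l.

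Members differed in how much of their sequence is found in other genes. Reads that fit several genes are not counted by the authors' counting program unless asked for, and ribosomal protein genes have many processed pseudogenes. Of the windows of a read's length along a member's principal transcript, a median of 33.3% also occurred in another annotated gene, 74 members shared windows with an annotated pseudogene, 9 members shared none and 15 shared over 75%. Rpl24 shared 80.1% of its windows, and 47.0% of its exonic bases overlapped Gm28037, and it had a mean of 5.15 counts per library. Rps27 shared 98.4% and its retrogene Rps27rt 89.4% of windows, Rpl5 91.1%, Rps12 81.6% and Rps2 58.2%, whereas Rps21, Rps3 and Rpl22 shared none. Across members the rho between the share of windows found elsewhere and the mean count per exonic kilobase was 0.089. With the log2 change of input_SYN over input_TH, the rho of that share was 0.30, 0.33 and 0.29 at the 3 ages. With SC_SYN over SC_TH it was 0.11, 0.10 and 0.30. The part of shared sequence in these changes was not tested. The levels of genes with much shared sequence are uncertain, and reads were counted without strand, so antisense transcripts are included. In all comparisons 81 members had enough counts to be tested, Rpl10l, Rpl39l and Rpl3l had too few in each, and Rpl24 and Rps27l passed in some.

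**Figure D2:**
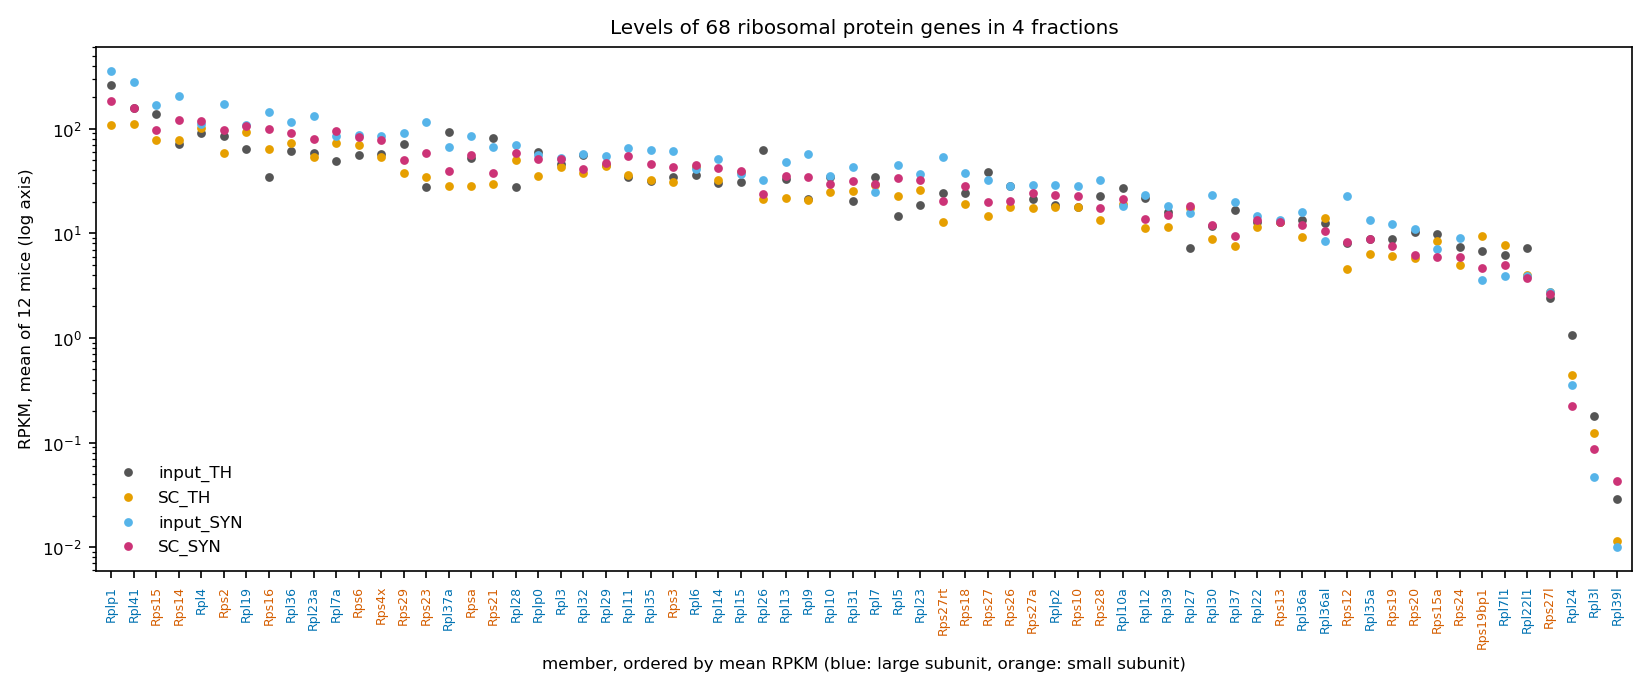
Mean RPKM of 68 of the members (log axis, 1 column of points per gene, ordered by level) in the 4 fractions, each point being the mean over the 12 mice. The order is led by Rplp1 at 228 RPKM, and Rpl10l, which had no count, is not drawn, and a value under 0.01 RPKM is drawn at 0.01.

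To ask which ribosomal protein mRNAs were more abundant in synaptosomes, input_SYN was compared with input_TH at each age by edgeR's quasi-likelihood test over all genes, with a call at a Benjamini-Hochberg adjusted p under 0.05. Of 83 members tested, 68 were higher and 1 lower in SYN at 3 weeks, 72 higher and 1 lower at 5 months, and 70 higher and 0 lower at 18 months. Over all genes tested, 31.7, 32.6 and 32.9% were called higher at the 3 ages, and 39.3 and 40.1% were called lower at 3 weeks and 5 months. The median log2 change of the members was 0.94, 1.20 and 0.90, beside -0.18, -0.18 and -0.12 over all genes. Both subunits took part, with 40, 42 and 40 of the large and 28, 30 and 30 of the small subunit genes higher. These are differences in share of the library, and in bulk samples fewer cells of a type and less RNA per cell cannot be told apart. With library totals in place of TMM the median of all genes moved from -0.18 to -0.75 at 3 weeks, and the split of the calls became 48 higher and 10 lower at 3 weeks, 56 and 8 at 5 months and 46 and 9 at 18 months. The median of the members stood above that of all genes by 1.12, 1.37 and 1.02 at the 3 ages with TMM and by 1.13, 1.37 and 1.02 with totals, and 79, 80 and 77 of 83 members lay above the median of all genes under either scaling.

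Rps23 (ENSMUSG00000049517, GRCm38 chr13:90922958-90924950, plus strand), a protein of the decoding centre, stood furthest above TH at 5 months. Its level was 27.3, 31.0, 33.9 and 29.1 CPM in the 4 input_TH libraries and 198, 229.9, 192 and 162 CPM in those of input_SYN. The lowest input_SYN value lay far above the highest input_TH value, and the log2 change was 2.84 (SE 0.11, edgeR adjusted p = 2.46e-18), beside 2.60 at 3 weeks and 2.51 at 18 months. Rps16 (ENSMUSG00000037563, GRCm38 chr7:28350652-28353155, plus strand), a small subunit protein whose end reaches the decoding site, held 38.1, 36.0, 31.8 and 37.1 CPM in input_TH and 190.0, 228, 306 and 200.1 CPM in input_SYN at 3 weeks. No values overlapped, and its log2 change was 2.81 (SE 0.16, edgeR adjusted p = 3.47e-15). Rps12 (ENSMUSG00000061983, GRCm38 chr10:23785183-23787275, minus strand), a protein of the head of the small subunit, followed with 2.45 (SE 0.10, edgeR adjusted p = 7.04e-18) at 5 months, and Rpl5, which carries 5S rRNA into the large subunit, with 2.30 (SE 0.18, edgeR adjusted p = 3.58e-12) at 3 weeks and 2.12 at 18 months. Rps23, Rps16 and Rpl5 belong to the end of the within-group direction that tended to be high in shallower libraries. The lowest median depth of the 4 fractions was that of input_SYN. With the log2 library total as a covariate, added after seeing the data, 75, 75 and 73 members were called higher and 0 lower at the 3 ages. The share of all genes under this covariate is not given here. The input_SYN libraries held at most 7879536 counts and those of input_TH at least 9699909. Depth and compartment therefore did not overlap, and this fit cannot tell them apart. Across the 77 members, Spearman's rho between the change and the slope on that direction was -0.56, -0.42 and -0.50 at the 3 ages, where both were computed from the same libraries and genes are not independent.

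The members were not uniform. Called higher at all 3 ages were 66 of 83, where at most 31.7% of all genes could be, the share called higher at 3 weeks. Rpl10a, Rpl24, Rpl26, Rpl36al, Rpl7 and Rpl7l1 were called at none. Rpl26 (ENSMUSG00000060938, GRCm38 chr11:68901583-68906989, plus strand), a protein near the exit of the peptide tunnel, gave log2 changes of -0.53, -0.14 and -0.25 with its input_SYN libraries widely spread, at 64.3 ± 23.7 CPM (SD, n = 4) in 5-month mice against 79.5 ± 1.04 CPM in input_TH. At 3 weeks it was called lower with the mouse as a block, at -0.59, and under other settings, and with the library total as a covariate its values were 0.74, 1.13 and 0.42 at the 3 ages. The lower calls were Rpl22l1, a paralog of Rpl22, at 3 weeks and Rps19bp1 at 5 months. Rpl22l1 held 10.2, 11.8, 11.9 and 11.7 CPM in input_TH and 7.46, 8.45, 4.93 and 9.01 CPM in input_SYN, without overlap, and its log2 change was -0.45 (SE 0.17, edgeR adjusted p = 0.0226). This call was lost without mouse 189, and the change was 0.66 once a trend on GC content and length was removed. Rps19bp1 held 5.63, 6.35, 6.72 and 6.45 CPM in input_TH and 2.89, 3.61, 2.99 and 4.40 CPM in input_SYN, again without overlap, with a log2 change of -0.69 (SE 0.26, edgeR adjusted p = 0.0211), which was lost without mouse 191, 192 or 193.

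Synaptosome libraries also differed from TH in their markers. At 5 months, the 6 synapse-localized mRNAs listed (Camk2a, Dlg4 and others) summed to 4877 to 5890.2 CPM in input_TH and 16376 to 18865 CPM in input_SYN, and 6 of 6 were called higher. Astrocyte markers summed to 3514 to 4235 CPM in input_TH and 12110.4 to 12676 CPM in input_SYN, with 6 of 6 higher, and microglia markers to 144 to 165 CPM and 416 to 517 CPM, also with 6 of 6 higher. Markers of oligodendrocytes were called higher for 4 of 6, those of neuronal soma and nucleus lower for 4 of 5, those of endothelial cells lower for 4 of 5 and those of erythrocytes lower for 5 of 5. None of the markers listed was at 0 in all libraries of a group. The part of these shifts in the members' enrichment was not tested.

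On the ribosome pellets the same comparison, SC_SYN over SC_TH, called 77 of 82 members higher at 3 weeks, 77 at 5 months and 59 at 18 months, with 1 lower at 18 months. Over all genes, 31.1, 32.1 and 29.9% were higher at the 3 ages and 32.2% lower at 18 months. The median log2 change of the members was 1.15, 0.92 and 0.63. By subunit, 46, 46 and 36 of 48 large and 31, 31 and 23 of 34 small subunit genes were higher. Library totals in place of TMM gave 58 higher and 3 lower, 33 and 3, and 23 and 4, again with the median of all genes moved down, and the median of members minus genes was 1.19, 1.01 and 0.70 with TMM and 1.18, 1.01 and 0.70 with totals. Rpsa (ENSMUSG00000032518, GRCm38 chr9:120127689-120132369, plus strand), a small subunit protein that is also known as the laminin receptor, held 83.1, 73.9, 76.0 and 87.5 CPM in SC_TH and 278, 237, 253 and 197 CPM in SC_SYN at 5 months. Every SC_SYN value lay far above the highest SC_TH value, and the log2 change was 1.65 (SE 0.11, edgeR adjusted p = 3.28e-12), beside 1.57 at 3 weeks and 1.36 at 18 months. Rps12 gave 1.70 (SE 0.22, edgeR adjusted p = 2.88e-07) at 3 weeks, and Rplp1 gave 1.64 (SE 0.23, edgeR adjusted p = 1.09e-06) at 3 weeks and 1.53 at 5 months. Rpl13, a large subunit protein, was among the 3 largest at 5 months with 1.39 (SE 0.25, edgeR adjusted p = 2.31e-05). At 18 months the largest changes were those of Rpl9 with 1.53 (SE 0.19, edgeR adjusted p = 2.65e-07), Rps16 with 1.50 (SE 0.22, edgeR adjusted p = 2.84e-06) and Rpl5 with 1.40 (SE 0.28, edgeR adjusted p = 0.00016).

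At 18 months the 4 SC_SYN libraries were split on the within-group direction, and the genes at its ends were split with them. Rps16 held 184, 106, 97.6 and 196 CPM in SC_SYN of mice 195 to 198 and 66.1, 56.1, 47.0 and 46.1 CPM in SC_TH, so mice 195 and 198 were far higher than 196 and 197, and no SC_SYN value was below the highest SC_TH value. Rpl26, from the other end, held 27.9, 54.3, 71.0 and 19.0 CPM in SC_SYN and 27.0, 37.1, 51.3 and 45.1 CPM in SC_TH. Here mice 195 and 198 were the low ones and the groups overlapped, and the log2 change, 1.53 at 3 weeks (edgeR adjusted p = 0.00264) and 0.91 at 5 months (edgeR adjusted p = 0.0316), was 0.19 at 18 months and did not pass the test. Across 77 members the rho between the change and the slope was 0.15, 0.14 and -0.67 at the 3 ages. Rps19bp1 was the lower call at 18 months, with -0.62 (SE 0.20, edgeR adjusted p = 0.0104), and this call was lost without mouse 197. Over input and SC together, 58 of 82 members were higher in SYN at all 3 ages. The share of all genes is not given here, and in SC at 18 months alone it was 29.9%. Rpl36al and Rpl7l1 were called in neither at any age.

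**Figure D3:**
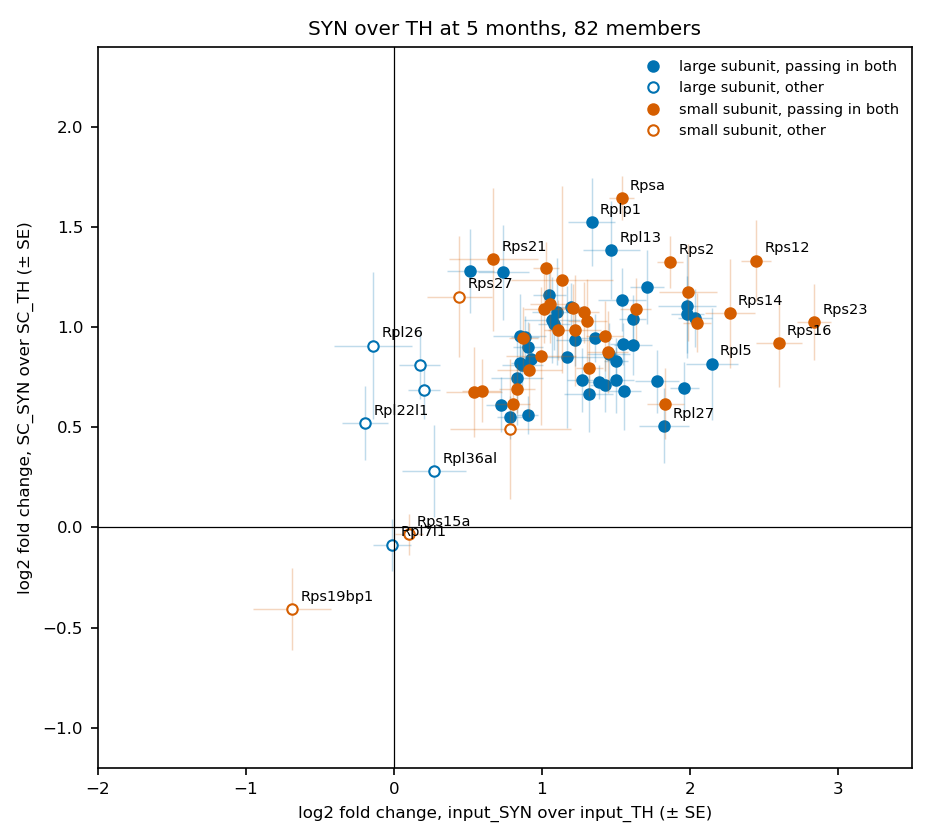
Log2 change of SYN over TH at 5 months for 82 members, in input libraries (horizontal axis) and in SC libraries (vertical axis), with points coloured by subunit and bars of 1 SE. Most members lie above 0 on both axes, with Rps23, Rps16 and Rps12 far to the right and Rpsa and Rplp1 at the top.

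Within TH, SC over input asks how much of an mRNA was in the ribosome pellet relative to its total. Here the members went both ways. Of 83 tested, 20 were higher and 46 lower at 3 weeks, 20 higher and 38 lower at 5 months, and 22 higher and 29 lower at 18 months. Over all genes 26.1% were higher and 26.6% lower at 3 weeks, 29.9 and 32.2% at 5 months, and 31.3 and 32.7% at 18 months. The median of the members was -0.28, -0.09 and -0.10. Of all genes, at most 26.1% could be higher and at most 26.6% lower at all 3 ages. At all 3 ages 12 were higher, Rpl15, Rpl19, Rpl23, Rpl27, Rpl28, Rpl31, Rpl4, Rpl6, Rpl7a, Rpl7l1, Rps16 and Rps6, of which 10 have large subunit symbols. Lower at all 3 ages were 24, among them Rplp1, Rpsa, Rps12, Rps15, Rps20, Rps21, Rps26, Rps27, Rps27rt, Rps28, Rpl12, Rpl26, Rpl37, Rpl37a and Rpl41. Rpl22, Rpl23a, Rpl35, Rpl9, Rps10 and Rps4x were called at no age, and Rpl11, Rpl29, Rplp2 and Rps13 were called in opposite directions at different ages.

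Rpl27 (ENSMUSG00000063316, GRCm38 chr11:101442298-101445529, plus strand), a large subunit protein, held 9.45, 8.49, 7.55 and 10.7 CPM in input_TH and 27.3, 28.8, 28.9 and 22.3 CPM in SC_TH at 18 months. The groups were far apart, and the log2 change was 1.61 (SE 0.13, edgeR adjusted p = 3.52e-11), beside 1.37 at 5 months and 1.06 at 3 weeks. Rpl28, a large subunit protein, gave 1.07 (SE 0.09, edgeR adjusted p = 1.13e-10) at 3 weeks and 0.91 and 0.77 later. Rps16 at 3 weeks held the input_TH values given above and 83.2, 87.3, 72.3 and 81.2 CPM in SC_TH, all above the input, with a log2 change of 1.30 (SE 0.13, edgeR adjusted p = 6.32e-09), and gave 0.91 and 0.56 at the later ages. Rpl5 was called higher at 3 weeks and 5 months, with 1.13 and 0.63, and gave 0.24 at 18 months without passing the test. Rps19bp1 was among the 3 largest at 18 months, with 0.77 (edgeR adjusted p = 0.000155).

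Rpl26 had the lowest log2 change at 3 weeks among the members called with a mean of at least 50 counts. It held 75.2, 71.4, 65.4 and 69.3 CPM in input_TH and 10.2, 7.35, 17.6 and 9.82 CPM in SC_TH. All input values exceeded the highest SC value, the log2 change was -2.45 (SE 0.26, edgeR adjusted p = 1.09e-08), and it was -1.47 at 5 months and -0.93 at 18 months. Rps21 (ENSMUSG00000039001, GRCm38 chr2:180257377-180258445, plus strand), a small subunit protein, held 48.7, 54.4, 54.0 and 50.4 CPM in input_TH and 7.01, 4.52, 13.7 and 9.29 CPM in SC_TH, again without overlap, and gave -2.40 (SE 0.24, edgeR adjusted p = 4.2e-09). Rpl37a, a zinc-binding protein of the large subunit, gave -2.05 (SE 0.17, edgeR adjusted p = 9.31e-11) and stayed low at -1.47 and -1.51, Rps27 gave -2.02, -1.36 and -0.84, and Rplp1 gave -1.68, -1.10 and -0.97. Of the 3 stalk proteins Rplp0 was also lower at 3 weeks and 5 months, with -1.38 and -0.57, whereas Rplp2 was lower at 3 weeks, with -0.28, and higher at 18 months, with 0.18 (edgeR adjusted p = 0.0481, a call lost without any of 8 mice). Rps27a, whose protein is made as a fusion with ubiquitin, was called lower at 3 weeks and at neither later age, with -0.33.

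Rpl26, Rps21 and Rps27 stand at the end of the within-group direction that tended to be low in shallower libraries, and Rps16 and Rpl5 at the other end. By the median, the SC_TH libraries of 3 weeks were the shallowest of SC_TH. Across 77 members the rho between SC_TH over input_TH and the slope was -0.71, -0.47 and -0.17 at the 3 ages. With the log2 library total as a covariate 9 members were called higher and 33 lower at 3 weeks, and 22 higher and 37 lower at 5 months. At 3 weeks the SC_TH libraries held at most 7119395 counts and those of input_TH at least 9827220, without overlap. Rpl27, Rpl28, Rpl37a and Rplp1 are not among the 10 genes at either end, and their within-group correlation with the component was 0.63, -0.33, 0.70 and 0.95, so Rplp1 followed it closely. Among the other genes the study had followed by qPCR or as proteins, Rpl15, a large subunit protein, was higher at all ages with 0.40, 0.34 and 0.36, and so was Rps6, the target of S6 kinase, with 0.53, 0.38 and 0.23. Rpl10a and Rpl7, both large subunit proteins, were lower at 3 weeks and 5 months, with -0.85 and -0.32 for Rpl10a and -0.48 and -0.26 for Rpl7. Rps13, a small subunit protein, was lower at 3 weeks with -0.50 and higher at 18 months with 0.34, the latter call being lost without mouse 196 or 197.

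Within SYN, SC over input was lower for all but 1 of the members called. Of 82 tested, 20 were lower at 3 weeks, 37 lower and 1 higher at 5 months, and 27 lower at 18 months, where 9.50% of all genes were lower at 3 weeks, 9.66% higher and 10.3% lower at 5 months and 6.70% lower at 18 months. The median was -0.38, -0.49 and -0.42, with 10, 19 and 14 large and 10, 18 and 13 small subunit genes lower. Single mice moved these counts, which were 13 without mouse 187 and 12 without mouse 190 at 3 weeks, 24 without mouse 194 at 5 months and 17 without mouse 196 at 18 months. Lower at all ages were 19 members, among them Rpl12, Rpl23a, Rpl30, Rpl37, Rpl37a, Rpl41, Rplp1, Rps12, Rps15, Rps2, Rps20, Rps23, Rps27rt and Rpsa, and 44 were called at no age. Of all genes, at most 6.70% could be lower at all ages. Rps12 held 58.1, 67.7, 65.7 and 62.9 CPM in input_SYN and 19.2, 19.9, 21.7 and 13.7 CPM in SC_SYN at 5 months. The groups did not overlap, and the log2 change was -1.84 (SE 0.17, edgeR adjusted p = 6.33e-08), beside -1.21 and -1.45 at 3 weeks and 18 months. Rps23 held the input_SYN values given above and 64.3, 93.2, 71.3 and 72.5 CPM in SC_SYN, also without overlap, with a log2 change of -1.43 (SE 0.19, edgeR adjusted p = 1.06e-05). The retrogene Rps27rt gave -1.66 (SE 0.26, edgeR adjusted p = 5.35e-05) at 5 months and -1.28 and -1.36 at the other ages, Rplp1 gave -1.06, -0.96 and -0.98, and Rpl30, a large subunit protein, gave -1.07 (SE 0.17, edgeR adjusted p = 0.000208) at 18 months. The single higher call was Rps19bp1 at 5 months, with 0.85 (SE 0.29, edgeR adjusted p = 0.0427), and it was lost without any 1 of the 4 mice of 5 months. Across 77 members the rho between SC_SYN over input_SYN and the slope on the within-group direction was -0.35, 0.073 and -0.037 at the 3 ages. With the library total as a covariate 34 members were lower and 2 higher at 3 weeks, 37 lower at 5 months and 34 lower at 18 months. At 3 weeks input_SYN held at most 4519629 counts and SC_SYN at least 5415274. At 5 months input_SYN held at most 3840102 and SC_SYN at least 8328535. Depth and library type did not overlap at these 2 ages, so this fit cannot fully separate them.

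**Figure D4:**
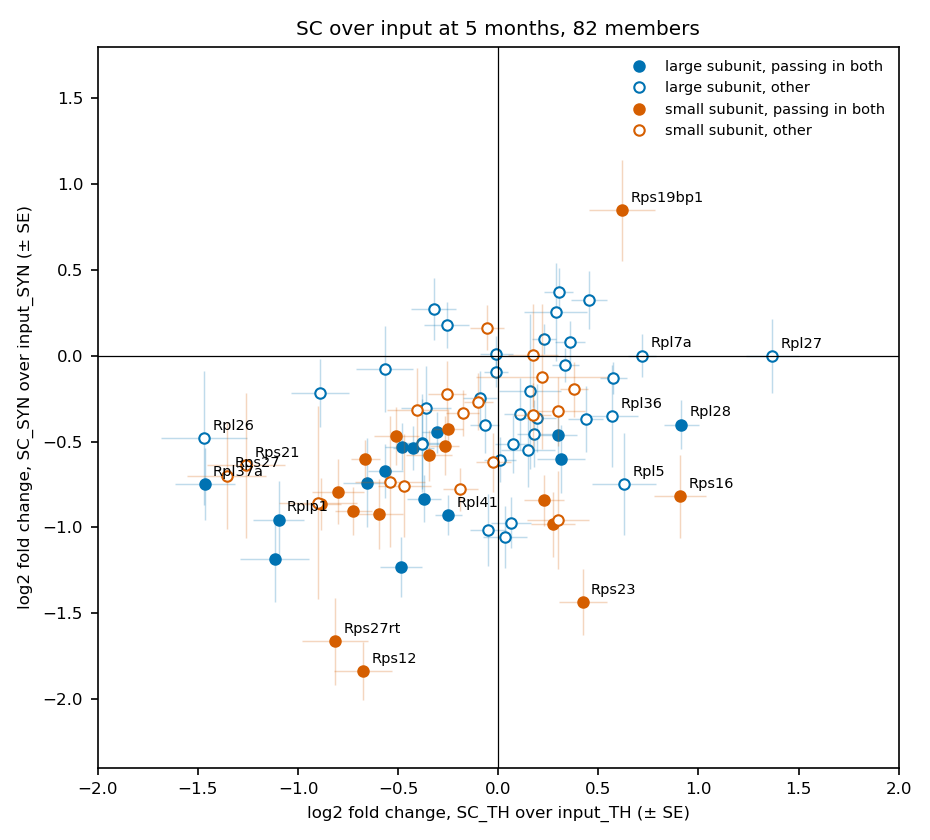
Log2 change of SC over input at 5 months for 82 members, in TH (horizontal axis) and in SYN (vertical axis), with points coloured by subunit and bars of 1 SE. In TH the members spread from -1.47 to 1.37 around 0, and in SYN most lie below 0, with Rps12 lowest at -1.84.

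The median of the large subunit genes stood above that of the small subunit genes in SC over input. For each mouse the median log2 change of the small subunit members was subtracted from that of the large subunit members, as a description with no test. These medians come from log2 CPM scaled over all 48 libraries and differ in level from the fitted changes above. The fitted medians of SC_TH over input_TH were -0.21 for large and -0.48 for small at 3 weeks. They were -0.0099 and -0.25 at 5 months and -0.0039 and -0.16 at 18 months. In TH the SC over input medians were -0.35 and -0.63 for the large and small subunit at 3 weeks, -0.14 and -0.32 at 5 months and -0.055 and -0.22 at 18 months. The difference was 0.27 ± 0.090 (SD, n = 4 mice), 0.18 ± 0.032 and 0.16 ± 0.12, with the large subunit higher in 4 of 4 mice at each age. In SYN the medians were -0.19 and -0.51, -0.30 and -0.54, and -0.33 and -0.48, and the difference was 0.32 ± 0.050, 0.24 ± 0.12 and 0.16 ± 0.045, again with 4 of 4 mice at each age. For input_SYN over input_TH the difference was -0.024 ± 0.038, 0.031 ± 0.056 and -0.014 ± 0.10, and the large subunit was higher in 1, 2 and 1 of 4 mice. For SC_SYN over SC_TH it was -0.16 ± 0.12, -0.077 ± 0.048 and -0.043 ± 0.031, with the large subunit lower in 4 of 4 mice at each age. These SDs are over mice and do not measure the spread between genes. Over members, the SD of the fitted SC_TH over input_TH was 0.78, 0.57 and 0.50 at the 3 ages. That of SC_SYN over input_SYN was 0.38, 0.45 and 0.39. The principal transcripts had a median length of 930 bases for large and 816 bases for small subunit genes, and across 83 members the rho of SC_TH over input_TH with the length of the principal transcript was 0.39, 0.35 and 0.30 at the 3 ages. By calls in TH, 15, 14 and 16 of 49 large and 5, 6 and 6 of 34 small subunit genes were higher, and 24, 20 and 15 large and 22, 18 and 14 small subunit genes were lower.

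The change with age was small in total homogenate. From 3 weeks to 5 months, 5 of 83 members rose and 3 fell in input_TH, where 4.76% of all genes rose and 7.05% fell. The median of the members was 0.06. With library totals in place of TMM 16 rose and 3 fell, and 5 were called without mouse 189, 190, 192 or 194. Rps2 (ENSMUSG00000044533, GRCm38 chr17:24718116-24721929, plus strand), a small subunit protein at the entry of the mRNA channel, held 142, 161, 151 and 143 CPM at 3 weeks, 116, 107, 104 and 110.0 CPM at 5 months and 129, 161, 132 and 136 CPM at 18 months. All 5-month values were below all others, and the log2 change was -0.45 (SE 0.07, edgeR adjusted p = 0.000607) to 5 months and 0.38 (SE 0.07, edgeR adjusted p = 0.00447) from 5 to 18 months. Rpl29, a large subunit protein, and Rplp0 also fell to 5 months, with -0.28 (SE 0.06, edgeR adjusted p = 0.00399) and -0.24 (SE 0.06, edgeR adjusted p = 0.00743). The risers were Rps27 with 0.30, Rpl14 with 0.25, Rps15a with 0.25, Rpl35a with 0.21 and Rps6 with 0.17. The call of Rpl14 was lost without mouse 189, 190 or 192 and that of Rps15a without mouse 192 or 194. Oligodendrocyte markers fell over the same interval in 6 of 6, with sums of 5091 to 6525 CPM at 3 weeks and 1991 to 2364 CPM at 5 months, and their part in these changes was not tested.

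From 5 to 18 months 22 of 83 members rose in input_TH and 0 fell, 14 of the large and 8 of the small subunit, where 8.18% of all genes rose. DESeq2 called 20 higher and 0 lower. The median was 0.08, the count was 14 without mouse 193 or 196 and 7 once a trend on GC content and length was removed, and library totals gave 16 higher and 3 lower. The largest change was that of Rpl36 (ENSMUSG00000057863, GRCm38 chr17:56613416-56614243, plus strand), a large subunit protein, which held 17.7, 19.0, 17.4 and 16.7 CPM at 5 months and 23.3, 24.8, 22.1 and 25.1 CPM at 18 months. The groups did not overlap, and the log2 change was 0.46 (SE 0.08, edgeR adjusted p = 0.00243), a call that was lost with the trend removed. Rpl37a rose by 0.37 (SE 0.10, edgeR adjusted p = 0.0179) and lost its call without mouse 193 or 196. Rpl12, in the stalk base, rose by 0.35, Rps14, in the platform of the small subunit, by 0.35, Rpsa by 0.27 and Rps6 by 0.20.

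**Figure D5:**
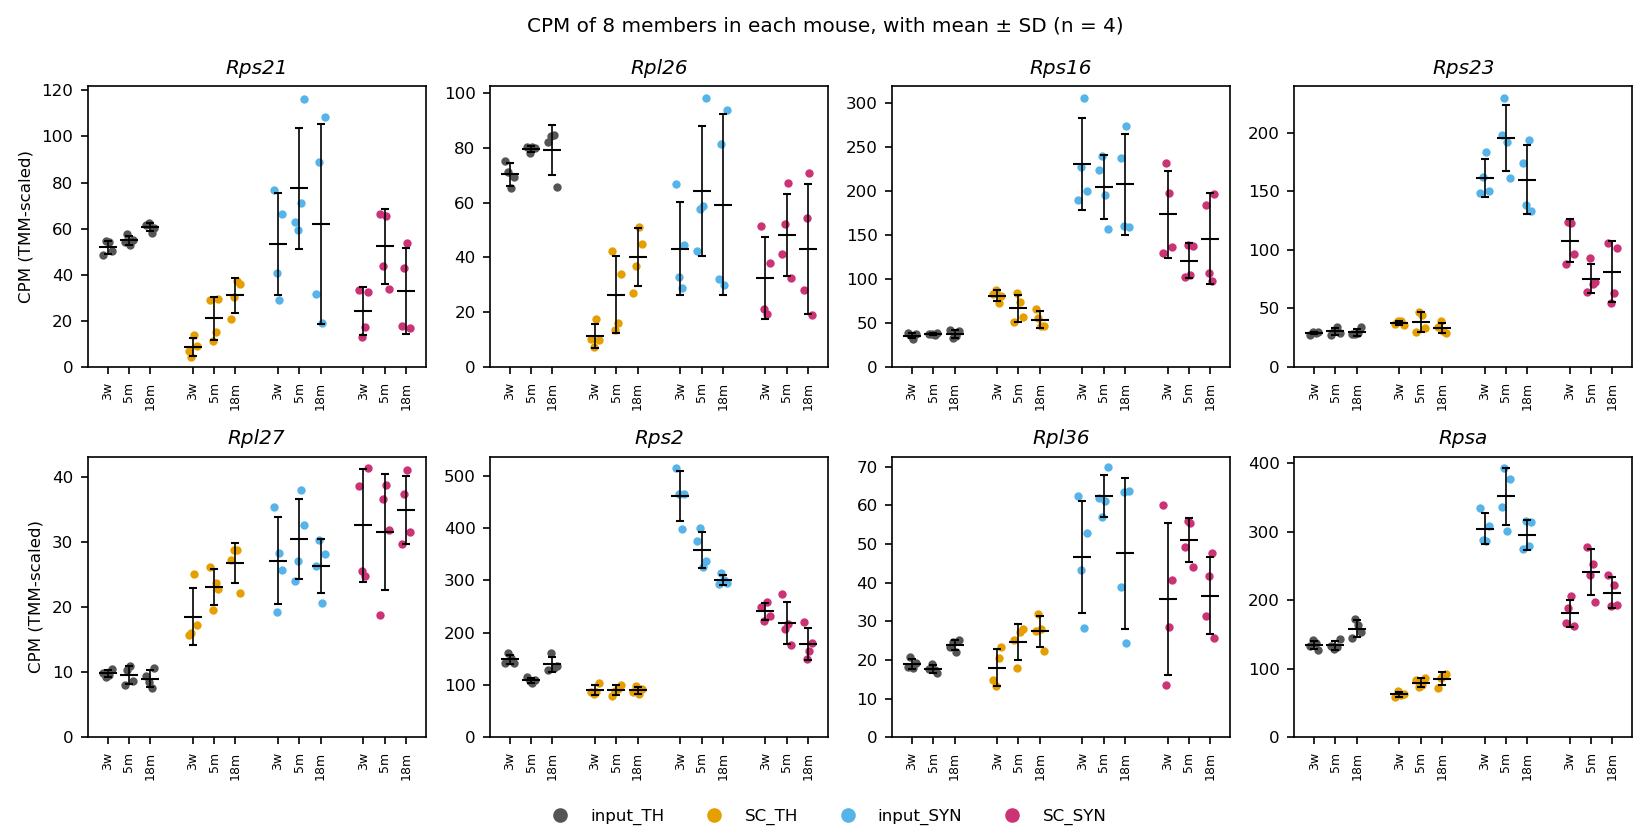
CPM of Rps21, Rpl26, Rps16, Rps23, Rpl27, Rps2, Rpl36 and Rpsa (1 panel each) in the 4 fractions at the 3 ages, with 1 point per mouse and bars for the mean and SD (n = 4). In SC_TH Rps21 and Rpl26 are lowest at 3 weeks, in input_TH Rps2 is lowest at 5 months, and the SYN points of Rps21, Rpl26 and Rps16 are widely spread.

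On ribosome pellets of TH, 30 of 82 members rose from 3 weeks to 5 months and 0 fell, 18 of 48 large and 12 of 34 small subunit genes, where 9.48% of all genes rose. DESeq2 called 29 higher. The median log2 change was 0.27. Rps21 held 7.01, 4.52, 13.7 and 9.29 CPM at 3 weeks, 29.0, 11.1, 15.1 and 29.3 CPM at 5 months and 20.9, 30.2, 37.5 and 35.8 CPM at 18 months. The values of 3 weeks and 5 months overlapped, the log2 change was 1.24 (SE 0.32, edgeR adjusted p = 0.0139), and the further change to 18 months of 0.54 did not pass the test. Rpl26 held 10.2, 7.35, 17.6 and 9.82 CPM, then 42.4, 13.3, 15.9 and 33.9 CPM and 27.0, 37.1, 51.3 and 45.1 CPM. It changed by 1.17 (SE 0.33, edgeR adjusted p = 0.0228) with overlapping groups, and Rps27 by 0.98 (SE 0.32, edgeR adjusted p = 0.0406). Of the genes the study had followed, Rps13 rose by 0.70 (SE 0.17, edgeR adjusted p = 0.00946) and Rpl10a by 0.65 (SE 0.16, edgeR adjusted p = 0.0107), while Rpl7 gave 0.27, Rpl15 -0.03 and Rps6 0.03 and did not pass. Rpl15 held 73.5, 79.0, 73.7 and 93.1 CPM at 3 weeks and 78.2, 78.6, 79.9 and 78.9 CPM at 5 months.

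This change lay along the direction on which libraries of the same group differed. Across 77 members its rho with the slope was 0.93, and the SC_TH libraries had a median of 4448523 counts at 3 weeks and 8643431 at 5 months. Markers of neuronal soma and nucleus summed to 9992 to 13065 CPM in SC_TH at 3 weeks and 7259.5 to 10379.9 CPM at 5 months, with 2 of 5 lower, oligodendrocyte markers were lower in 6 of 6, and the part of these shifts was not tested. With the log2 library total as a covariate 2 members were called, 1 of them among the 30. Median depth rose with age in SC_TH, so this fit could not fully separate age from depth. The count was 10 without mouse 188, 12 without mouse 194, 14 without mouse 187, 16 without mouse 191 and 38 without mouse 192. Rps21, Rpl26 and Rps27 each lost their call without mouse 187, 188 or 194, Rpl26 and Rps27 also without mouse 190 or 191, and Rps27 without mouse 196 or 198. In SC_TH from 5 to 18 months 0 of 82 members were called, where 2.17% of all genes were called in either direction. At an unadjusted p under 0.05 there were 9, DESeq2 called 0, the rho was 0.87, and without mouse 191 there were 4.

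In synaptosomes little passed the test. From 3 weeks to 5 months 1 of 81 members was called in input_SYN and it fell, where 1.94% of all genes fell. This was Rps2, with 515, 465, 398 and 465 CPM at 3 weeks and 374, 399, 325 and 336 CPM at 5 months. The groups overlapped by 1 value each, and the log2 change was -0.37 (SE 0.10, edgeR adjusted p = 0.0449), a call lost without mouse 187, 188, 190, 191, 193, 194, 195 or 196. The count was 3 without mouse 197 and 2 without mouse 198. At an unadjusted p under 0.05 there were 14, and DESeq2 called 1 higher and 1 lower. The share of all genes at these cuts is not given here. From 5 to 18 months 0 of 81 were called in input_SYN, with 6 at an unadjusted p under 0.05 and 0 by DESeq2, where 0.139% of all genes were called. The rho with the slope was 0.65 for the first interval and -0.45 for the second in input_SYN, and 0.85 and -0.50 in SC_SYN. In SC_SYN 0 of 82 were called from 3 weeks to 5 months, with 9 at an unadjusted p under 0.05 and 3 higher by DESeq2, and 1 without mouse 190, where 8.05% of all genes were called. From 5 to 18 months 0 were called in SC_SYN, with 5 at an unadjusted p under 0.05 and 0 by DESeq2, where 0.014% of all genes were called. The spread of these libraries was wide, with Rps21 at 62.0 ± 43.4 CPM (SD, n = 4) in input_SYN and 32.9 ± 18.6 CPM in SC_SYN at 18 months against 60.6 ± 1.77 CPM in input_TH.

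Whether age changed the members differently in SYN and TH was tested as the difference of the changes. For input libraries 3 of 83 members differed from 5 to 18 months, all lower in SYN relative to TH, where 1.41% of all genes were. Rps2 held 293, 315, 301 and 295 CPM in input_SYN at 18 months, all below the 5-month values given above, while its input_TH values rose, and the difference of the changes was -0.66 (SE 0.12, edgeR adjusted p = 0.00617). Rps12 held 42.2, 50.3, 49.8 and 48.8 CPM in input_SYN at 18 months, again all below those of 5 months, and 16.0, 15.9, 13.0 and 14.8 CPM in input_TH against 12.1, 12.3, 15.1 and 12.3 CPM at 5 months, which overlapped, with a difference of -0.67 (SE 0.14, edgeR adjusted p = 0.0122). Rpsa held 336, 393, 300.4 and 377 CPM at 5 months and 274, 315, 279 and 314 CPM at 18 months in input_SYN, which overlapped. In input_TH it held 133, 129, 133 and 144 CPM and 145, 173, 164 and 153 CPM, with all 18-month values above those of 5 months, and the difference was -0.54 (SE 0.12, edgeR adjusted p = 0.0169). The change within SYN alone did not pass the test for any of the 3, with -0.28, -0.44 and -0.27. The count was 1 without mouse 192 or 194 and 6 without mouse 197 or 198, it was 10 with the mouse as a block, 1 after removing the trend with length and GC and 0 with both, and DESeq2 called 11. Across 77 members the rho of this difference with the slope on the within-group direction was -0.20. Rps12 and Rpsa lost their call without mouse 192 or 194. From 3 weeks to 5 months 0 of 83 differed, with 2 at an unadjusted p under 0.05 and 0 by DESeq2, where 0.0224% of all genes did, and the rho was 0.71. On the pellets 0 of 82 differed in either interval, with 3 and 15 at an unadjusted p under 0.05 and 0 and 2 by DESeq2, where 0.0301% of all genes did from 3 weeks to 5 months and 0% from 5 to 18 months, and the rho was -0.083 and -0.79.

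The change of SC over input with age was tested in the same way. In TH, 3 of 83 members rose in SC relative to input from 3 weeks to 5 months, where 1.00% of all genes did. Rplp0 held 29.3, 26.9, 42.0 and 31.6 CPM at 3 weeks and 69.9, 34.2, 37.9 and 57.6 CPM at 5 months in SC_TH, which overlapped, and its difference of the changes was 0.81 (SE 0.21, edgeR adjusted p = 0.0407). Rpl12, which stands with it in the stalk base, gave 0.77 (SE 0.18, edgeR adjusted p = 0.0273), and Rpl32, a large subunit protein, gave 0.75 (SE 0.19, edgeR adjusted p = 0.0353). Across 77 members the rho of this difference with the slope was 0.90, and the within-group correlation of these 3 genes with the component was 0.95 for Rplp0, 0.93 for Rpl12 and 0.96 for Rpl32. These calls were lost without mouse 187, 188 or 194, where the count was 0, and it was 16 without mouse 189, 17 without mouse 192, 8 without mouse 195 and 5 without mouse 196. It was 6 with the mouse as a block and 0 with the library total as a covariate, and 37 members stood at an unadjusted p under 0.05 and 18 were called by DESeq2. From 5 to 18 months 0 of 83 were called in TH, with 15 at an unadjusted p under 0.05, 3 lower by DESeq2 and 10 without mouse 191, where 1.78% of all genes were called, and the rho was 0.67. In SYN 0 of 82 were called in either interval, with 5 and 0 at an unadjusted p under 0.05 and 0 by DESeq2, where 0% of all genes were called in both, and the rho was 0.68 and -0.29.

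Some members have a paralog with a name of its own. Rpl3l, Rpl10l and Rpl39l were near or at 0 beside Rpl3, Rpl10 and Rpl39, which were all called higher in input_SYN than in input_TH at each age. Rpl7l1, a paralog of Rpl7, was higher in SC_TH than in input_TH at all ages, with 0.35, 0.45 and 0.41, whereas Rpl7 was lower at 3 weeks and 5 months. Rpl36al was called in SYN over TH at no age, in input or SC, while Rpl36a was called higher in input at all 3. Rpl22 was called higher in input_SYN at all ages, and Rpl22l1 at none. Rps27l, a paralog of Rps27 that responds to p53, was called in SC_SYN over SC_TH at no age.

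A few ribosomal proteins have symbols that the rule left out. Fau, which codes for Rps30 fused to a ubiquitin-like protein, was higher in input_SYN at all ages with 0.95, 1.20 and 0.50 and in SC_SYN with 1.31, 1.25 and 0.58. It also had a lower change in SYN than in TH from 5 to 18 months in input, by -0.70 (edgeR adjusted p = 0.0116). Rack1, a scaffold on the small subunit, was higher in SC_SYN by 1.00 at 3 weeks and 0.93 at 5 months. Related lists are given at 5 months, when 32.6% of all genes were higher and 40.1% lower in input_SYN over input_TH, with a median of -0.18, and 29.9% higher and 32.2% lower in SC_TH over input_TH. A list of 17 other TOP RNAs held mostly mRNAs of the translation machinery (Eef1a1, Eef2, Pabpc1 and others). It also held Tpt1, Npm1, Nap1l1 and Hnrnpa1 and the noncoding Gas5 and Snhg1. Of the 17, 13 were higher and 2 lower in the former, with a median of 0.55, and 11 higher and 4 lower in the latter, with a median of 0.34. Of 16 ribosome assembly factors (Nop56, Fbl, Ncl and others), 2 were higher and 8 lower in input_SYN over input_TH, with a median of -0.29, and 10 were higher and 1 lower in SC_TH over input_TH, with a median of 0.50. Of 9 regulators of TOP mRNAs and S6 (Larp1, Mtor and others), 4 were higher and 2 lower in input_SYN over input_TH, with a median of -0.05.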

How the data were processed

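RNA from 12 mice was sequenced in 48 libraries. Per the labels and the study's methods, libraries were made by rRNA depletion with a directional kit and sequenced as single-end reads, demultiplexed with bcl2fastq 2.20.0.422, mapped by the authors to the transcriptome of GRCm38 with TopHat2 2.1 and counted per gene, without strand, with featureCounts. The deposited values were raw counts per gene, and 48144 of 48526 identifiers matched GENCODE mouse release 21, the rest holding 0.0596% of counts. UMI adaptors were used, but their use in counting is not given in the sources used here, and the sequencing run of a library is not labelled.

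Counts were tested over all genes with edgeR 4.0.16 in R 4.3.3 (TMM, filterByExpr, quasi-likelihood, Benjamini-Hochberg, threshold 0.05), in 1 fit per fraction for ages and 1 fit of 24 libraries per library type or compartment for the others. CPM values use library totals times TMM factors over all libraries. Fold changes are log2, with a prior count of 2. Counts of members at an unadjusted p under 0.05, called by DESeq2 or called under any other alternative setting named below are given without the share over all genes. They do not show whether members differ from other genes. DESeq2 1.42.0, other scalings and filters, a trend on GC content and length (loess span 0.5), the mouse as a block and leaving out each mouse were alternatives. The log2 library total as a covariate was added after seeing the data. Depth differed between fractions and, in SC_TH, between ages, so this covariate could not be fully separated from those groups. Replicate pairs differed by 1.98 to 32.2 times their counting noise, so none was a duplicate. Libraries with the same mouse number came from the same mouse, and the median correlation of their deviations from group means over 9290 genes was -0.0404 to 0.241 between fractions. Named genes were those the study measured singly, the 3 largest changes each way per comparison among members with a mean of at least 50 counts, the extremes of level, paralogs, members with a role of their own and members called against the majority. Members and lists were chosen with earlier results of these data known, and fitted steps were tested on simulated data. Some genes are not reported here by name.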

Additional observations from a re-analysis of the deposited data

Results flagged for a closer look

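In each group of 4 mice whose values are printed, the highest or lowest mouse was compared with the range of the group, and 3 of 70 groups held a mouse that stood apart, where chance marks about 1 in 20. These were Rpl22l1 in input_TH at 3 weeks, with 10.2 CPM in mouse 187, Rps12 in input_TH at 5 months, with 15.1 CPM in mouse 193, and the large subunit median of SC_TH over input_TH at 3 weeks, with -0.58 in mouse 188. Mouse 188 had the lowest values of Rps21 and Rpl26 in SC_TH at 3 weeks as well.

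The change with age differed between SYN and TH for 3 members. The change from 5 to 18 months in input libraries was lower in SYN than in TH by -0.67 for Rps12, -0.54 for Rpsa and -0.66 for Rps2 on the log2 scale, by a test of the difference. The count was 1 without mouse 192 or 194, 1 after removing the trend with length and GC, and 0 with that and the mouse as a block. In TH the change of SC over input from 3 weeks to 5 months, tested as a difference between library types, was 0.77 for Rpl12, 0.81 for Rplp0 and 0.75 for Rpl32, and 0 members were called for it once the library total was a covariate, with a rho of 0.90 across 77 members between this change and the slope on the within-group direction.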

How the results depend on the processing

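Of the counts of members called, 74 of 572 alternatives moved the count by over 1.5 times. Other tools and filters changed counts near 0 most. From 5 to 18 months the difference between SYN and TH in input was called for 3 members, 11 with DESeq2, 8 without a filter, 7 with at least 10 counts in every library, 1 with the GC and length trend removed, 20 with the library total as a covariate and 10 with the mouse as a replicate block, or 0 with block and trend. The change of SC over input in TH from 3 weeks to 5 months was called for 3, 18 with DESeq2, 6 with median-of-ratios scaling, 25 without a filter, 6 with at least 10 counts, 1 with the trend, 6 with the block and 0 with the covariate, and from 5 to 18 months for 0, 3 with DESeq2, 2 without a filter and 1 with at least 10 counts. The block changed no other count by over 1.5 times, while block and trend together gave 39 for SC_SYN over input_SYN at 3 weeks, with 34 for the trend and 36 for the covariate. Counts of 8 and 22 in input_TH were 19 with library totals (5 months over 3 weeks) and 7 with the trend (18 over 5 months). In SC_TH the 30 were 2 with the covariate, and the 0 from 5 to 18 months was 9 without a filter. In input_SYN the 1 was 2 with DESeq2, no filter, at least 10 counts, the trend or the covariate, and the 0 was 2 with the covariate. In SC_SYN from 3 weeks the 0 was 3 with DESeq2, 1 without a filter and 3 with the trend, and the difference of pellets from 5 to 18 months was 2 with DESeq2. SC_SYN over SC_TH gave 36 and 27 with library totals at 5 and 18 months, and SC_TH over input_TH 42 with the covariate at 3 weeks.

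Library totals lowered the subunit medians, since the median of all genes fell with them. For input_SYN over input_TH the large subunit went from 0.84, 1.04 and 0.74 to 0.41, 0.54 and 0.27 and the small from 0.87, 1.01 and 0.75 to 0.43, 0.51 and 0.29. For SC_SYN over SC_TH the large went to 0.49, 0.27 and 0.080 and the small to 0.66, 0.34 and 0.12. With means in place of medians the large minus small difference of input_SYN over input_TH was -0.17 at 3 weeks and -0.13 at 5 months and the large subunit 0.93 at 5 months. With members of at least 10 counts in every library the small subunit of SC_TH over input_TH was -0.40 and the difference 0.28 at 5 months. By coding length, longest transcript and unshared windows, Rplp1 ranked 3, 3 and 15 and Rps15 20, 7 and 28, and Rpl41 ranked 11 by unshared windows.

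Leaving out 1 mouse gave 5 to 10 and 14 to 24 calls in input_TH, 10 to 38 and 0 to 4 in SC_TH, 0 to 3 in input_SYN and 0 to 1 in SC_SYN from 3 weeks, 1 to 6 for the difference of inputs and, for SC over input, 0 to 17 and 0 to 10 for the change in TH and 12 to 22, 24 to 42 and 17 to 29 within SYN at the 3 ages.

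Signs turned for 2 called members with the covariate, Rpl11 and Rps14 in SC_TH over input_TH at 3 weeks, to -0.11 and -0.16, and for Rpl22l1 in input_SYN over input_TH at 3 weeks, to 0.66 with the trend and 0.65 with trend and block. Among values that had not passed, Rpl26 in input_SYN over input_TH turned to 0.74, 1.13 and 0.42 with the covariate and ranged from -0.46 to 0.041 with 1 mouse left out at 5 months, and in SC_SYN over SC_TH at 18 months to -0.34 with library totals and a range of -0.0060 to 0.46 with 1 mouse left out. In SC_TH from 3 weeks to 5 months Rpl15 turned to 0.12 with the covariate and ranged from -0.096 to 0.036 with 1 mouse left out, Rpl7 to -0.12 with the covariate, and Rps6 to -0.043 with the trend, -0.042 without mouse 192 and -0.0053 without mouse 187, with a highest value of 0.094 without mouse 191. The causes were not tested. The shallowest library, in input_SYN, held 1780267 counts.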
